A study of Homo sapiens with 2 samples.

Results

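Nuclear receptor genes encode transcription factors that bind DNA through a pair of zinc fingers and, in most cases, change their activity when a hormone, vitamin or lipid enters the ligand-binding domain. A set of 40 such genes, picked out by symbol with repeated symbols summed, was followed among the 24462 gene symbols of the count tables. It spans the estrogen, progesterone, glucocorticoid and mineralocorticoid receptors, the receptors for retinoids, fatty acids, thyroid hormone, vitamin D, bile acids and xenobiotics, the clock receptors, and orphan receptors with no agreed ligand.

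The set was compared between RT-R-MDA-MB-231 and MDA-MB-231 cells. RT-R-MDA-MB-231 is a radiotherapy-resistant derivative of the human triple negative breast cancer line MDA-MB-231, obtained with repeated X-ray doses of 2 Gy up to 50 Gy. MDA-MB-231, the parental line, is an established line that lacks the estrogen and progesterone receptors and HER2 amplification. Both lines grew in RPMI medium with 10% fetal bovine serum, penicillin and streptomycin. Each was represented by 1 library of 3′ tags, reads taken from the ends of polyadenylated transcripts, from 500 ng of total RNA. The RT-R library held 10014804 counts and the parental library 9255008. With 1 library per line there is no replicate check or p-value, and the labels do not say whether the resistant line is a clone. All intervals are 95% exact intervals for counting error alone, and reads copied by PCR are not independent molecules.

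Markers of the parental line were present in both libraries, with 8454 RT-R and 4310 parental counts for vimentin (VIM), 9663 and 6995 for AXL, and 3129 and 2560 for CD44. The leukocyte markers PTPRC and CD3E had 0 counts in both. Of the endothelial markers, PECAM1 had 50 RT-R and 223 parental counts, while CDH5 had 1 and 0 and VWF 1 and 1. Of the fibroblast markers, PDGFRB had 28 RT-R and 52 parental counts, COL1A1 76 and 59, and LUM 2 and 0. Among luminal or HER2 markers, GATA3 had 113 RT-R and 152 parental counts, ERBB2 174 and 230, AGR2 101 and 165, EPCAM 26 and 15, FOXA1 7 and 11, and TFF3 4 and 9. Their part in the results below was not tested.

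Of the 40 receptor genes, 24 had at least 20 counts in a library and are called measured. All 24 reached 20 counts in the RT-R library and 22 did so in the parental library. The exceptions were RORA and NR4A1, each with 10 parental counts. Of the 16 genes under the minimum, 8 had no count in either library. These were PGR, ESRRB, ESRRG, RXRG, NR1I2, HNF4A, HNF4G and NR0B1. A count of 0 allows a level of up to 0.295 scaled CPM in the RT-R and 0.329 in the parental library, the equivalent of 3 counts. Scaled CPM are counts relative to library sizes adjusted with the trimmed mean of M-values (TMM), which put the RT-R library at 1.12 times the parental one. The other 8 were detected below the minimum, with too few counts to compare the lines. The nearest to the limit were RARB, with 12 RT-R and 6 parental counts, and RORB, with 8 and 5. Just inside it lay NR4A1, with 25 RT-R and 10 parental counts, and RORA, with 30 and 10.

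The receptor genes together held 11102 RT-R and 9479 parental counts, or 1092 and 1040 scaled CPM, so their summed share of the tags was close in the 2 libraries. A few orphan receptors held most of the receptor counts in both libraries. Tags come from transcript ends, so levels need no division by gene length. ESRRA stood at 242 RT-R and 214 parental scaled CPM, NR2F2 at 234 and 283, and NR2F6 at 149 and 146. These 3 genes took 57.2% of the receptor counts in RT-R (56.3 to 58.1) and 61.9% in parental cells (60.9 to 62.9). The part of ESRRA is uncertain, since its exons overlap those of TRMT112 on the opposite strand. The median measured receptor had 195.5 RT-R and 130.5 parental counts, against 249 and 227 for all 12644 measured genes.

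**Figure D1:**
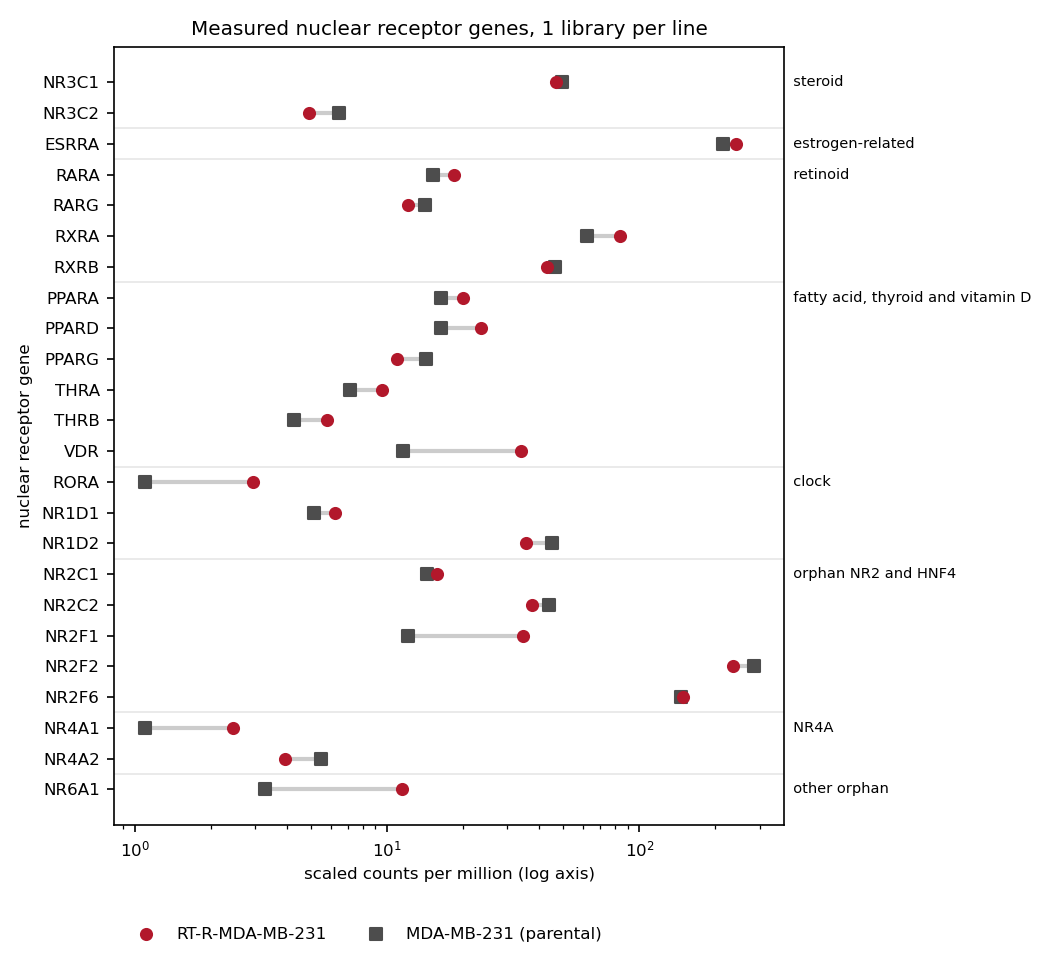
Scaled CPM (log axis) of the 24 measured nuclear receptor genes in the RT-R library (red circles) and the parental library (grey squares), 1 library per line, grouped by role. VDR, NR2F1, NR6A1, RORA and NR4A1 show the widest gaps, all with the RT-R value higher, while ESRRA, NR2F2 and NR2F6 lie at 146 to 283 in both.

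Of the 24 measured receptors, 5 rose and 0 fell in RT-R cells. They were the orphan receptor gene NR6A1 (117 RT-R and 30 parental counts), the vitamin D receptor gene VDR (345 and 105), the orphan receptor gene NR2F1 (351 and 110), the clock receptor gene RORA (30 and 10) and the immediate early receptor gene NR4A1 (25 and 10). A gene counts as having risen or fallen when it was measured, differed at least 2-fold in scaled counts and had an interval on the same side of 1. By that rule 6.95% of all measured genes rose and 4% fell. RORA and NR4A1 passed the count minimum only through the RT-R library, where they are high, so the 5 of 24 is given as a count and not as support for a shift of the set. Whether more cells express a gene or each cell holds more of its RNA cannot be told apart in bulk RNA.

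The median log2 ratio of RT-R to parental, taken on scaled counts plus 0.5, was 0.22 over the measured receptors and -0.01 over all measured genes. The receptors spanned -0.47 (NR4A2) to 1.79 (NR6A1), and 15 of 24 lay above 0, against 6195 of all 12644 measured genes. The 15 and the median include RORA and NR4A1, which passed the count minimum only through the RT-R library. At any size, the interval lay above 1 for 8 receptors and below 1 for 4, where 27.7% and 30.4% of all measured genes did so. The interval held 1 for the other 12. The spread was close to that of all genes, with a median absolute log2 ratio of 0.37 for the receptors and 0.34 for all. The receptors lie on many chromosomes, and the median log2 ratio was 0.26 when the median of the 15 measured genes on each side was subtracted.

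**Figure D2:**
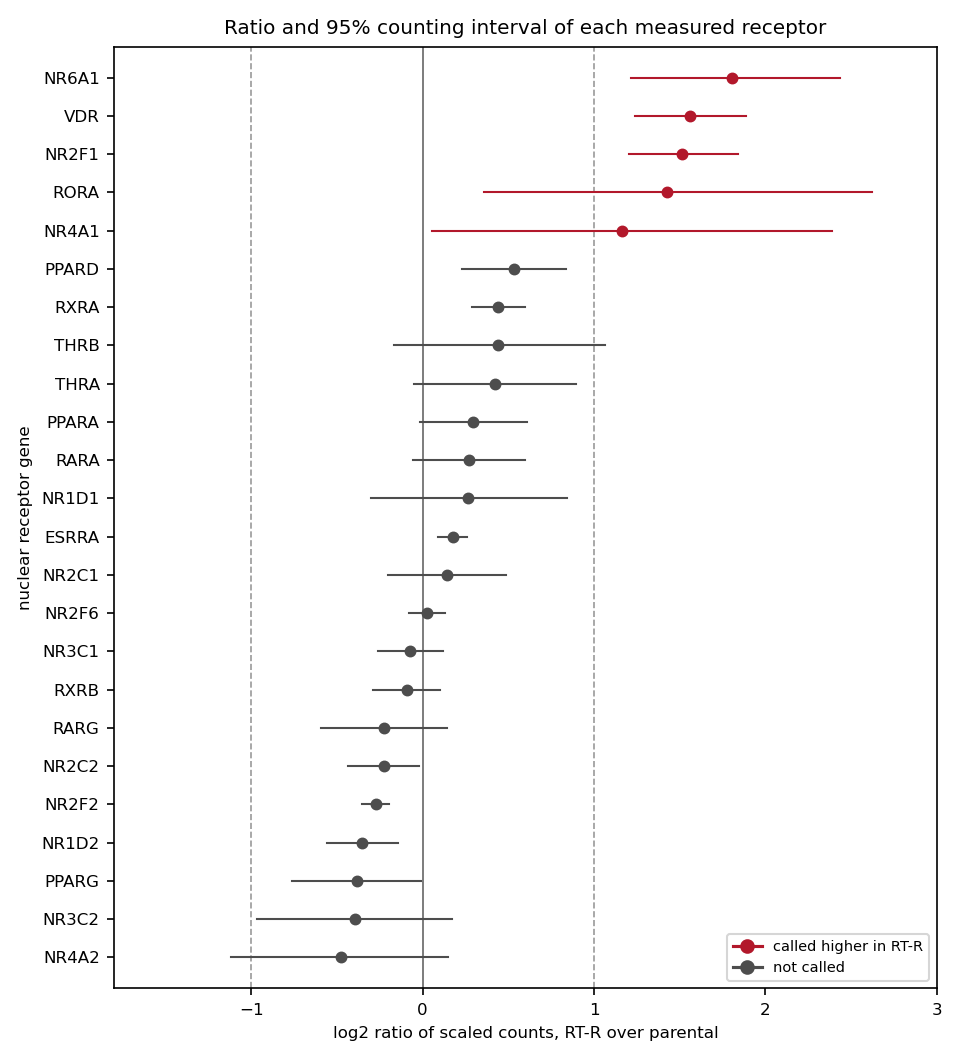
Log2 ratio of RT-R to parental scaled counts (points, no pseudocount) with 95% counting intervals (lines) for the 24 measured receptors, ordered by ratio; dashed lines mark 2-fold. The 5 red genes rose by the 2-fold rule, from NR4A1 at 2.24-fold to NR6A1 at 3.50-fold, and the lowest gene, NR4A2, has an interval that holds 1.

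The steroid receptors were near absent or near equal. ESR1, the estrogen receptor alpha gene that marks luminal breast cancer, had 1 RT-R and 0 parental counts, and its relative ESR2 had 6 and 1. PGR, the progesterone receptor gene, had 0 counts in both, so a difference in ESR1 or PGR was not detectable at this depth. NR3C1, the glucocorticoid receptor gene, was the only well-covered steroid receptor, with 475 RT-R and 448 parental counts, 1.05-fold lower in RT-R with an interval from 0.922 to 1.20. NR3C2, the mineralocorticoid receptor gene, had 50 RT-R and 59 parental counts, 1.32-fold lower (0.888 to 1.96). Both intervals held equal expression.

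Genes known to be induced by glucocorticoids were mixed. Of 17 measured, 2 rose and 0 fell, with a median log2 ratio of 0.05. At any size, the interval lay above 1 for 4 of them and below 1 for 7. Over all measured genes the shares were 27.7% and 30.4%. Among those below 1 are PDK4 and ANGPTL4, which are given with the PPAR targets. DUSP1, a phosphatase that switches off MAP kinases, rose 3.03-fold (2.22 to 4.20) with 179 RT-R and 53 parental counts. ZFP36, which destabilizes inflammatory transcripts, rose 2.57-fold (1.40 to 4.98) with 43 and 15. Both are also immediate early genes, and ZFP36 passed the count minimum only through the RT-R library. FKBP5, a chaperone partner of the glucocorticoid receptor and a widely used readout of it, had 260 RT-R and 339 parental counts, 1.45-fold lower (1.23 to 1.72). TSC22D3, which encodes the glucocorticoid-induced leucine zipper, had 736 and 639, a ratio of 1.03 (0.928 to 1.15). It lies on the X chromosome, and its log2 ratio relative to its neighbours was 0.90, against 0.05 before. For FKBP5 it was -0.47, against -0.54. FKBP5 and TSC22D3 were looked up after the others were seen.

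Among the estrogen-related receptors, which have no known natural hormone and govern mitochondrial genes, only ESRRA was measured. It had 2457 RT-R and 1952 parental counts, a ratio of 1.13 (1.06 to 1.20). Its exons overlap those of TRMT112 on the opposite strand in the GENCODE annotation. TRMT112 had 7581 RT-R and 5869 parental counts. The use of strand in counting is not given in the sources used here, so reads of such a pair cannot be told apart.

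The 4 measured retinoid receptors all stayed under 2-fold. Retinoic acid binds the RARs, which act as heterodimers with RXRs, and RXRs also partner the vitamin D, thyroid hormone and fatty acid receptors. RXRA had 854 RT-R and 564 parental counts, a ratio of 1.36 (1.22 to 1.51) that stayed under 2-fold. RXRB, present on 6 rows of each table of which 1 had counts, had 439 and 420, 1.07-fold lower (0.931 to 1.22). RXRA therefore supplied 66.0% of the RXRA and RXRB counts in RT-R (63.4 to 68.6) and 57.3% in parental cells (54.2 to 60.4), a share that does not depend on scaling. RXRB shares exon sequence on the opposite strand with SLC39A7, which had 1180 RT-R and 1309 parental counts.

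RARA had 187 RT-R and 139 parental counts, a ratio of 1.21 (0.963 to 1.51), and RARG had 123 and 129, 1.17-fold lower (0.907 to 1.51). Both intervals held 1, and the antisense gene RARA-AS1, which overlaps RARA, had 14 and 10 counts. RARB, itself a classic retinoic acid target gene, had only 12 RT-R and 6 parental counts. It also overlaps TOP2B on the opposite strand, which had 762 RT-R and 786 parental counts.

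Of 24 measured genes of ligand metabolism and binding, 6 rose and 2 fell in RT-R, where 6.95% and 4% of all measured genes did so. Of the 6 that rose, 5 handle retinoids. The list holds other retinoid genes that did not rise, among them RDH10, RDH11 and CRABP2. STRA6, the membrane receptor that brings retinol into cells, had 21 RT-R counts and 0 parental counts, at least 6.28-fold higher against a parental floor of 3 counts, leaving aside counting error in the RT-R library. With that error its counting interval starts at 4.67-fold. ALDH1A3, which makes retinoic acid from retinaldehyde, rose 2.38-fold (1.98 to 2.87) with 430 RT-R and 162 parental counts. Relative to its chromosomal neighbours its log2 ratio was 0.97, under 2-fold, against 1.25 before. It had 23 such neighbours, fewer than the full 15 on each side. This list had a median log2 ratio of 0.25, the same with STRA6 set at that floor ratio. With a minimum of 100 counts 2 genes of the list rose and 2 fell, since STRA6, LRAT, CYP26B1 and CYP27B1 have fewer counts.

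Another 3 retinoid enzymes are in that count, of which LRAT was named after its values were seen. LRAT, which esterifies retinol for storage, had 47 RT-R and 12 parental counts, 3.51-fold higher (1.83 to 7.27). CYP26B1, which breaks retinoic acid down, had 47 and 19, 2.22-fold higher (1.28 to 4.0). DHRS3, which reduces retinaldehyde back to retinol, had 220 and 81, 2.44-fold higher (1.88 to 3.18). Relative to chromosomal neighbours the log2 ratio of DHRS3 was 0.92, against 1.28 before. It was 1.87 for LRAT, against 1.77, and 1.36 for CYP26B1, against 1.13. STRA6, LRAT and CYP26B1 passed the count minimum only through the RT-R library, where they are high, as did CYP27B1. DHRS3 and ALDH1A3 passed it in both libraries. The rises are therefore given as counts and not as support for a shift of the retinoid genes. The retinol dehydrogenases RDH10 (48 RT-R and 36 parental counts) and RDH11 (2131 and 2079) stayed under 2-fold.

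CRABP2, which carries retinoic acid to the RARs, went the other way and fell 3.28-fold (2.22 to 4.96), with 35 RT-R and 103 parental counts. STS, the steroid sulfatase gene on the X chromosome, fell 2.32-fold (1.85 to 2.91), with 117 and 243. The 424 measured X-linked genes had a median log2 ratio of -0.78. Relative to its chromosomal neighbours STS stood at -0.46.

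Known retinoic acid targets split in both directions. Of 8 measured, 3 rose and 3 fell, and the interval excluded equal expression for all 8. The 3 that rose were STRA6, DHRS3 and CYP26B1, which the metabolism list also holds. Of these, STRA6 and CYP26B1 passed the count minimum only through the RT-R library. Beside CRABP2, RARRES2, which encodes the chemoattractant chemerin, fell 9.67-fold (2.96 to 49.9) with 3 RT-R and 26 parental counts. It passed the minimum only through the parental library. RARRES3, a growth-suppressing phospholipase of the same response, fell 2.57-fold (2.10 to 3.16) with 140 and 323. The remaining targets were ICAM1, an adhesion molecule, with 275 RT-R and 189 parental counts, a ratio of 1.3 (1.08 to 1.58), and TGM2, a transglutaminase, with 1209 and 1801, 1.66-fold lower (1.54 to 1.79). The median log2 ratio of the list, -0.17, lies between these and hides the split; it was the same with STRA6 at its floor ratio. With a minimum of 100 counts 1 target rose and 2 fell.

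**Figure D3:**
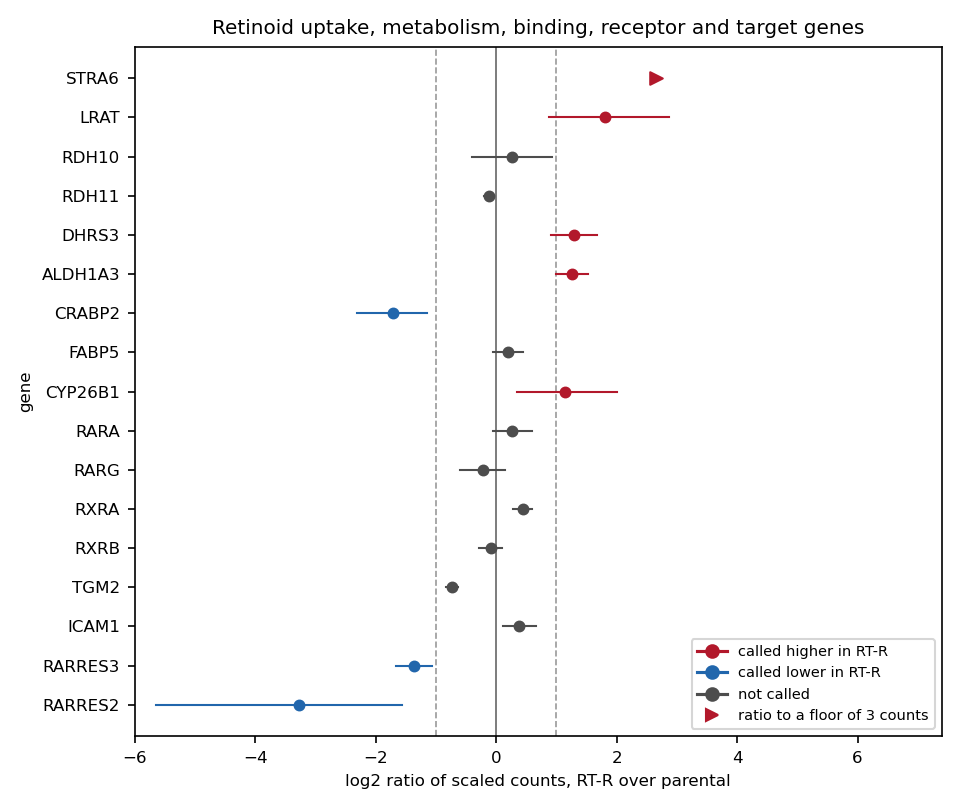
Log2 ratio of RT-R to parental scaled counts (points) with 95% counting intervals (lines) for the measured retinoid genes, from uptake at the top through metabolism, binding and receptors to targets; dashed lines mark 2-fold. STRA6 is drawn at 6.28-fold, its ratio to a floor of 3 parental counts (triangle). STRA6, LRAT, DHRS3, ALDH1A3 and CYP26B1 lie to the right, RDH10 and RDH11 near 0, RARA, RARG, RXRA and RXRB stay within 2-fold, and CRABP2, RARRES3 and RARRES2 lie to the left.

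The vitamin D receptor gene showed the best-covered rise of a ligand-activated receptor. VDR had 345 RT-R and 105 parental counts, a 2.95-fold rise (2.36 to 3.70), and its share of all receptor counts was 3.11% in RT-R (2.79 to 3.45) and 1.11% in parental cells (0.907 to 1.34). It ranked 443 from the top among the 12644 measured genes, and stood at a log2 ratio of 1.67 above its chromosomal neighbours. CYP27B1, which makes the active hormone, had 20 RT-R and 4 parental counts, 4.48-fold higher (1.5 to 18.0), at the count minimum and named after its value was seen. CYP24A1, which breaks the hormone down and is the usual readout of VDR, had only 7 RT-R and 6 parental counts.

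Of 5 measured vitamin D targets, 1 rose and 0 fell, with a median log2 ratio of -0.13. CD14, a bacterial lipopolysaccharide co-receptor, rose 2.50-fold (1.33 to 4.98) with 39 RT-R and 14 parental counts. THBD, the anticoagulant receptor thrombomodulin, had 124 RT-R and 204 parental counts, 1.83-fold lower (1.46 to 2.31), the lowest of the 5. Over the 5 targets the interval lay above 1 for 2 and below 1 for 2, so they did not share a direction.

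The fatty acid receptors moved slightly and unequally. PPARD, a broadly expressed regulator of fatty acid oxidation, had 240 RT-R and 149 parental counts, a ratio of 1.44 (1.17 to 1.78). PPARA, the target of fibrates, had 204 and 149, a ratio of 1.23 (0.989 to 1.53). PPARG, the adipocyte regulator, had 111 and 130, 1.31-fold lower (1.01 to 1.70). Relative to its neighbours on chromosome 3 the log2 ratio of PPARG was -0.09, against -0.38 before. For PPARD it was 0.69, against 0.53, and for PPARA 0.22, against 0.30. Within the trio PPARG made up 20% of the counts in RT-R (16.7 to 23.6) and 30.4% in parental cells (26 to 35.0), and PPARD 43.2% (39.1 to 47.5) and 34.8% (30.3 to 39.5). None reached 2-fold.

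Of 15 measured PPAR targets, 1 rose and 0 fell, with a median log2 ratio of -0.03. LPL, the lipase that frees fatty acids from lipoproteins, rose 2.44-fold (1.58 to 3.88) with 79 RT-R and 29 parental counts. Chosen after their values were seen, the lipid droplet gene PLIN2 had 3205 and 1887, a ratio of 1.52 (1.44 to 1.61). CPT1A, which admits fatty acids to mitochondria, had 1980 and 1189, a ratio of 1.49 (1.39 to 1.61). PDK4, which restrains pyruvate oxidation, had 32 and 57, 1.99-fold lower (1.27 to 3.17), and ANGPTL4, an inhibitor of LPL, had 219 and 308, 1.57-fold lower (1.31 to 1.87).

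The thyroid hormone receptor genes had nearly equal ratios. THRA had 97 RT-R and 65 parental counts, a ratio of 1.34 (0.967 to 1.86), and THRB had 59 and 39, a ratio of 1.36 (0.890 to 2.09). THRA supplied 62.2% of their counts in RT-R (54.1 to 69.8) and 62.5% in parental cells (52.5 to 71.8). Exons of THRA and the clock receptor gene NR1D1 overlap on opposite strands, so their reads are uncertain.

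Among the clock receptors, RORA rose and NR1D2 was slightly lower. ROR receptors activate and the NR1D (REV-ERB) receptors repress the clock gene ARNTL through the same DNA element. RORA had 30 RT-R and 10 parental counts, a 2.69-fold rise (1.28 to 6.17) on few counts. It overlaps the antisense gene RORA-AS1, which had 3 counts in both. NR1D2 had 360 RT-R and 412 parental counts, 1.28-fold lower (1.11 to 1.47). Relative to its neighbours on chromosome 3 its log2 ratio was -0.06, against -0.35 before. NR1D1 had 63 and 47, a ratio of 1.20 (0.811 to 1.79), and RORB had 8 and 5.

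Of 18 measured clock genes, 1 rose and 1 fell, with a median log2 ratio of 0.06. PER2, a repressor of the clock loop, rose 2.58-fold (1.71 to 3.98) with 92 RT-R and 32 parental counts. Relative to its neighbours on chromosome 2 its log2 ratio was 0.72, under 2-fold, against 1.35 before. CIART, another repressor of the loop, fell 2.60-fold (1.53 to 4.57) with 21 and 49, and stood at -1.45 relative to its neighbours. ARNTL itself had 54 and 44, a ratio of 1.10 (0.725 to 1.68), and CLOCK had 468 and 474, 1.13-fold lower (0.992 to 1.29). The labels give no time of day or synchronization for the cultures.

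Of the 5 measured orphan NR2 receptors, NR2F1 rose, while NR2F2 and NR2C2 were slightly lower and NR2F6 and NR2C1 had intervals that held 1. NR2F1 (COUP-TFI), a developmental regulator, had 351 RT-R and 110 parental counts, a 2.86-fold rise (2.30 to 3.58). Its close relative NR2F2 (COUP-TFII), a regulator of venous and mesenchymal identity, had 2381 and 2583, 1.21-fold lower (1.14 to 1.28). NR2F1 made up 12.8% of the NR2F1 and NR2F2 counts in RT-R (11.6 to 14.2) and 4.08% in parental cells (3.37 to 4.90), so NR2F2 held the larger part in both lines. The antisense gene NR2F1-AS1, whose exons overlap NR2F1, had 181 RT-R and 80 parental counts, and the contribution of such reads was not tested.

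NR2F6, a repressor in lymphocytes, had 1510 RT-R and 1330 parental counts, a ratio of 1.02 (0.945 to 1.10). NR2C1 had 161 and 131, a ratio of 1.10 (0.870 to 1.40). NR2C2 had 381 and 400, 1.17-fold lower (1.02 to 1.35), and overlaps MRPS25 (1107 and 1197 counts) and FGD5-AS1 (557 and 566) on the opposite strand. Relative to neighbours on chromosome 3 the log2 ratio of NR2C2 was -0.06, against -0.23 before. NR2C1 and NR2C2, the testicular receptors first found in testis, are broadly expressed. HNF4A and HNF4G, regulators of liver and gut genes, were at 0 in both libraries.

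NR6A1, the germ cell nuclear factor that silences pluripotency genes during differentiation in mouse, showed the largest ratio of the measured receptors. It had 117 RT-R and 30 parental counts, a 3.50-fold rise (2.32 to 5.41), and no overlapping gene of the tables was found for it. Its rank was 337 of 12644, and its log2 ratio above its chromosomal neighbours was 1.87. NR5A2, a regulator of bile acid and steroid genes, had 4 RT-R and 0 parental counts.

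The start regions of 3 receptor genes were read from the RefSeq table on GRCh38.p14, because NR6A1 and NR2F1 rose and RARB carries a known retinoic acid element. Of the 40 genes, 36 had a window. Each line gives the 250 bases before a listed start, 5′ to 3′ on the gene's strand. Capitals mark the motif searched: the receptor hexamer AGTTCA in NR2F1, the cyclic AMP response element TGACGTCA in NR6A1, and the direct repeat of receptor hexamers in RARB, GGTTCA followed after 5 bases by AGTTCA.
NR2F1, chr5:93582972-93583221, plus strand: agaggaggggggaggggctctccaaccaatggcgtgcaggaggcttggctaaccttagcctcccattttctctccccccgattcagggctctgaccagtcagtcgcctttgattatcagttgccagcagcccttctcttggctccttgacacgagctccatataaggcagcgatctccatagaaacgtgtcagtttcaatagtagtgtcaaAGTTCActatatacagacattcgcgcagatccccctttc
NR6A1, chr9:124771312-124771561, minus strand: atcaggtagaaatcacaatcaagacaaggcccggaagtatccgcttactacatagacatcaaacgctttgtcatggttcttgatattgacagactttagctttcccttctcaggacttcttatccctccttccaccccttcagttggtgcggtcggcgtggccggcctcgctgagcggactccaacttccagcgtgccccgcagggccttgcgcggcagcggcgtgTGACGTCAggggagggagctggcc
RARB, chr3:25428013-25428262, plus strand: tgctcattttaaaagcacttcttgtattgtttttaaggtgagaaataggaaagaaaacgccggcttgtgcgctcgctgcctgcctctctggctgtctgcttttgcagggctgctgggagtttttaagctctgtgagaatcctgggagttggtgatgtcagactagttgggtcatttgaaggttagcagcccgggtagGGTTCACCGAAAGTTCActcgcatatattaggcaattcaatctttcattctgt

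Both strands of all 35116 windows were searched over the same 250 bases. AGTTCA was in 8.80% of them, TGACGTCA in 1.65% and the direct repeat in 0.0171%, or 6 windows. Among the 87 windows of the receptor genes, AGTTCA was in 11, from 8 genes, TGACGTCA in 1 and the direct repeat in 1. Other hexamers searched were GGTTCA, in 4.6% of the receptor windows and 7.16% of all windows, AGGTCA, in 14.9% and 12.1%, and TGACGT, in 6.9% and 7.1%. The last base of the match lies 34 bases before the start in NR2F1, 17 in NR6A1 and 37 in RARB. RARB lists 4 windows and NR2F1 lists 2, and the one shown is the first with a match. The AGTTCA of the RARB repeat is also a match to the shorter motif. A match describes the letters only and does not show that a factor binds there.

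The NR4A receptors, immediate early genes that act without a known ligand, were lowly expressed and unequal. NR4A1 (NUR77) had 25 RT-R and 10 parental counts, a 2.24-fold rise with an interval from 1.04 to 5.23 that nearly reaches 1. NR4A2 (NURR1) had 40 and 50, 1.39-fold lower (0.901 to 2.17), and NR4A3 had 4 and 1. NR4A2 supplied 58.0% of the NR4A counts in RT-R (45.5 to 69.8) and 82.0% in parental cells (70.0 to 90.6). Of 10 measured genes of a separate immediate early list, which does not hold DUSP1 and ZFP36, 0 rose and 0 fell by the 2-fold rule, with a median log2 ratio of 0.30. The highest was ATF3, a stress-induced factor, with 199 RT-R and 97 parental counts, a ratio of 1.84 (1.44 to 2.37). The lowest was IER3, a survival gene, with 37425 and 48368, 1.44-fold lower (1.42 to 1.46).

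Overlaps on the opposite strand without shared exons concern other receptors. Among their partners, SYNE2, over ESR2, had 1244 RT-R and 888 parental counts, NKIRAS1, over NR1D2, had 110 and 117, and NR2F2-AS1, beside NR2F2, had 37 and 36. SYNE1, over ESR1, had 85 and 84, and MED24, over THRA, had 2687 and 2666. RORA-AS2, RORB-AS1 and HNF4A-AS1 had 0 in both, as had THRB-AS1, which shares exon sequence with THRB.

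Of 26 measured coregulators, which receptors recruit to open or close chromatin, 1 rose and 1 fell, with a median log2 ratio of -0.09. NRIP1 (RIP140), a corepressor that binds many ligand-bound receptors and is itself induced by estrogen and retinoic acid, rose 4.05-fold (3.21 to 5.15) with 402 RT-R and 89 parental counts. TRIM24, a coregulator of the retinoic acid and estrogen receptors, fell 2.04-fold (1.54 to 2.73) with 77 and 141, a call that was lost with library sizes from total counts or the upper quartile. Relative to its neighbours on chromosome 7 its log2 ratio was -0.58, under 2-fold, against -1.03 before. For NRIP1 it was 1.79, against 2.01, on 16 neighbours, fewer than the full 15 on each side. NCOR1, a large corepressor of unliganded receptors, had 1092 and 974, a ratio of 1.01 (0.921 to 1.10), and was named after its values were seen.

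**Figure D4:**
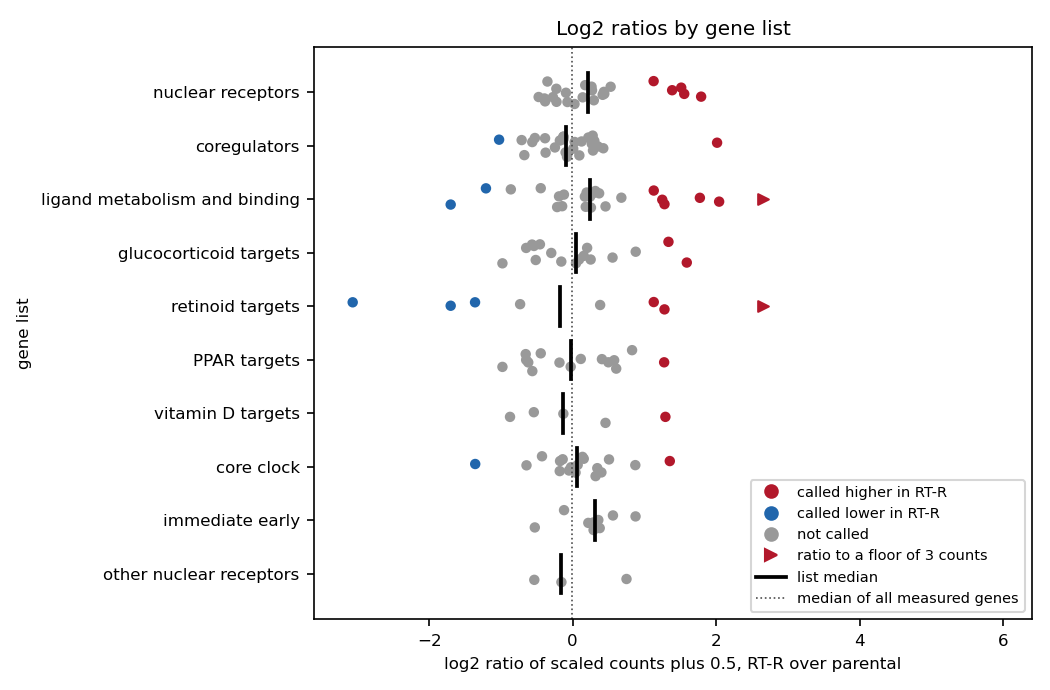
Log2 ratio of RT-R to parental scaled counts plus 0.5 for the measured genes of each list (points, spread vertically for legibility), coloured by the 2-fold rule; black bars are list medians, and the dotted line is the median of all measured genes, -0.01. STRA6 is drawn at its ratio to a floor of 3 counts (triangle) in both lists that hold it. Receptors show 5 genes higher and 0 lower, retinoid targets 3 and 3, and coregulators 1 and 1. Of all measured genes, 6.95% were higher and 4% lower. Genes held by several lists, such as DHRS3, CYP26B1 and CRABP2, are drawn in each. The receptors RORA and NR4A1 passed the count minimum only through the RT-R library.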

How the data were processed

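The authors deposited unnormalized counts by gene symbol for 1 library per line, prepared with a Lexogen 3′ tag kit per the labels' protocols. The submitters' processing notes name Bowtie2, bedtools, bcl2fastq (2.20.0.422) and the hg19 build. Tool settings, annotation, strand and the handling of multi-mapped reads: not given in the sources used here. Totals were 10014804 RT-R and 9255008 parental counts.

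From these, repeated symbols were summed. Library sizes were scaled by TMM (edgeR 4.0.16, R 4.3.3), and ratios carry Clopper-Pearson 95% intervals (scipy 1.17.1, Python 3.11.15). A gene was called with at least 20 counts in a library, a 2-fold ratio and an interval excluding 1. Log2 ratios used a pseudocount of 0.5. A single library for each line allows no test between samples. The calculation was tested on simulated data.

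Members and lists were chosen with earlier results of these data known. A few list genes are not reported here and are left out of the list counts. Named genes of other lists include up to 3 highest and 3 lowest called by interval bound, or the highest and lowest where none was called. Some uncalled genes, among them THBD, ARNTL, CLOCK, RDH10, RDH11, ICAM1 and TGM2, were named outside that rule. The RefSeq table (GRCh38.p14) placed 98.6% of measured genes on chromosomes, and GENCODE v29 gave overlaps. Alternatives covered scaling (total counts, DESeq2 1.42.0 median of ratios, upper quartile), count minimum, fold threshold, pseudocount, neighbours and repeated rows.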

Additional observations from a re-analysis of the deposited data

How the results depend on the processing

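The same 5 receptors rose and 0 fell when library sizes came from total counts, median of ratios or upper quartile, with a minimum of 1 count, at 1.5-fold, without the interval rule and with only the largest row of each symbol. With a minimum of 100 counts 3 remained (VDR, NR2F1 and NR6A1), because RORA and NR4A1 have fewer counts. At 4-fold the number was 0. Of all genes passing the minimum, 7.04% to 7.47% rose under the 3 other scalings and 6.45% with a minimum of 1 count. At 1.5-fold 13.8% rose and 11.9% fell. With a minimum of 100 counts 3.81% rose and 2.83% fell, and at 4-fold 2.39% and 0.554%. The median log2 ratio of the measured receptors ran from 0.14 (minimum of 100) to 0.36 (minimum of 1). Under the 3 other scalings and a pseudocount of 5, none of the 24 log2 ratios left its interval or changed sign. With chromosomal neighbours subtracted, 3 left it: RXRB, at 0.20 against -0.09 before, NR1D2 (-0.06) and NR2F2 (-0.41); the cause was not tested. TRIM24 was no longer called lower under total counts or the upper quartile. Of 20 counts of genes higher or lower over the other lists, 7 moved by over 1.5 times with a minimum of 100 counts, 8 at 1.5-fold and 10 at 4-fold, where 2 ligand metabolism genes and 1 retinoid target rose. No paired analysis was possible because each line has 1 library. RORA, NR4A1, STRA6 and CYP27B1 rest on 30 or fewer RT-R counts, and genes below 20 counts allow no comparison. LRAT, CYP26B1, ZFP36 and CD14 also had under 20 parental counts and passed the minimum only through the RT-R library.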

Other observations

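Other nuclear receptor genes outside the 40 showed no call. Of 6 looked at, 3 were measured. NR1H2 and NR1H3 encode the liver X receptors, sensors of oxidized cholesterol that control sterol export. NR1H2 had 190 RT-R and 247 parental counts, 1.45-fold lower (1.20 to 1.76), and NR1H3 had 99 in both, 1.12-fold lower (0.836 to 1.49) after scaling. NR2E3, a photoreceptor regulator, had 36 and 19, a ratio of 1.70 (0.949 to 3.14). NR2E1, NR5A1 and NR0B2 had 0 in both.

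The bile acid and xenobiotic receptors and their targets were near absent. NR1H4, the bile acid receptor gene, had 2 RT-R and 0 parental counts, NR1I2 had 0 in both, and NR1I3, the constitutive androstane receptor gene, had 5 in both while overlapping TOMM40L (259 RT-R and 239 parental counts). Of 11 genes that these receptors control in liver and gut, 0 reached 20 counts. CYP3A4, the main drug-metabolizing enzyme gene, had 0 RT-R and 6 parental counts, and SLC51A, a bile acid exporter subunit, had 8 and 4. Of the steroid enzymes, HSD17B8, which oxidizes estradiol, had 202 and 113, a ratio of 1.60 (1.27 to 2.04). HSD17B10, on the X chromosome, had 357 and 582, 1.82-fold lower (1.59 to 2.08), and stood at a log2 ratio of -0.31 relative to its neighbours. Both enzymes were chosen after their values were seen.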
